A study of Mus musculus with 2 samples.

Results

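The 36 genes described here belong to the unfolded protein response (UPR), the programme by which a cell adjusts its endoplasmic reticulum (ER) to the load of unfolded protein. They were chosen by symbol from a list, and all 36 were found among the 32285 genes of the deposited matrices. By role they comprised 16 chaperones and folding enzymes, 2 translocation genes, 8 genes of ER-associated degradation, 5 sensors and transcription factors, and 5 targets of the transcription factor Atf4. Together they held 0.552% of the UMIs (unique molecular identifiers, each standing for 1 captured RNA molecule) of the injured library and 0.447% of those of the control library.

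As background, unfolded protein in the ER is sensed by Ern1 (IRE1α), Eif2ak3 (PERK) and Atf6. Ern1 splices the mRNA of Xbp1 into a form that encodes an active transcription factor, Eif2ak3 slows translation and favours the translation of Atf4, and Atf6 is cut to release a transcription factor of its own. Splicing of Xbp1, phosphorylation and cleavage are not read by counts of RNA molecules per gene. In the lung the response is known from alveolar type 2 (AT2) cells, which make surfactant proteins, and from plasma cells, which secrete antibody.

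The libraries came from whole lung of C57BL/6 mice with the SP-C I73T mutation, a change in surfactant protein C, which is encoded by Sftpc and made by AT2 cells. The lungs had been lavaged, perfused and digested with collagenase, and libraries were made with the 10x 3′ v3 chemistry. The injured group was 1 library of SP-C mutant lung, which the study's design places 14 d after injury, and the control group was 1 library of SP-C mutant lung, placed at steady state. In this line tamoxifen, given once by gavage in corn oil at 175 mg/kg, cuts out a neomycin cassette, after which more of the mutant protein is made. This dose was listed for both libraries. The treatment tags and the titles contradicted each other: the tag untreated stood on the library titled injured, and the tag for tamoxifen stood on the one titled control. Groups follow the titles, and every direction below is between the libraries as titled. The number of animals behind each library and their age were not given in the sources used here. With 1 library per group there was no replicate, so no difference below could be set against a spread between animals, and no p-value is given.

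The injured library held 2702 barcodes and 22314603 UMIs, and the control library held 2674 barcodes and 17207816 UMIs. Of these, 2302 and 2298 cells passed the filters, and 1 barcode sequence occurred in both libraries. The cells were clustered without the 36 genes or the other pathway genes. Clusters were named by how far their markers matched fixed lists, so that each class name below means cells resembling that type. The Cxcr6-positive lymphocytes and the Ager and Cldn4 cluster had no list name and are called by leading genes. Levels are counts summed over all cells of a class and scaled to 1000000 UMIs of that class (CPM). Intervals are 95% intervals that cover counting error only, and higher and lower calls rest on size only, a ratio of 1.5-fold either way, among genes with at least 50 counts over both libraries or at least 20 within a class. Levels of different genes were not compared with each other. All cells of 1 class and library share that library, and a class made of fewer cells of a type cannot be told apart from cells with less RNA in its summed level.

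The promoters of these genes are shown first, because known UPR and Atf4 binding sequences lie in them. Of the 36 genes, 32 had an entry in the RefSeq promoter table (build GRCm38.p6, 250 bases before to 50 bases after each annotated start), and Hyou1, Manf, Derl1 and Atf6 had none. The search covered both strands for 4 motifs: the ER stress response element ERSE (CCAAT, any 9 bases, CCACG), its variant ERSE-II (ATTGG, any 1 base, CCACG), the core of the UPR element (TGACGTG) and the CEBP-ATF response element CARE (TGATGNAA). ERSE was found in 39 of 32851 promoters (0.119%), and 9 of the genes had it: Calr, Canx, Creld2, Derl3, Dnajc3, Hsp90b1, Hspa5, Pdia6 and Syvn1. ERSE-II was found in 12 promoters (0.0365%), among them those of Dnajb11 and Herpud1. The UPR element core occurred in 661 promoters (2.01%), including that of Hspa5 and 1 of those listed for Fkbp11. CARE occurred in 1304 promoters (3.97%), including those of Asns, Chac1, Herpud1 and Trib3. Thus 8 of the 14 chaperone genes with a promoter entry held ERSE or ERSE-II, and 17 of the 32 genes held none of the 4 motifs in this window. A match is a stretch of letters and not a measured site.

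The 6 promoters printed here belong to the genes whose levels recur below: the chaperone genes Hspa5, Hsp90b1, Calr and Pdia6 with ERSE, Herpud1 with both ERSE-II and CARE, which do not overlap, and Asns with CARE. Each run gives the 250 bases before the annotated start, 5′ to 3′ on the strand of the gene, and capitals mark the fixed bases of the motifs. They lie at chr2:34771840-34772089 (plus strand), chr10:86705445-86705694 (minus), chr8:84846932-84847181 (minus), chr12:17266339-17266588 (plus), chr8:94386179-94386428 (plus) and chr6:7693210-7693459 (minus). The promoter of Hsp90b1 holds 2 matches to ERSE on opposite strands, and that of Hspa5 holds ERSE and the UPR element core.
Hspa5: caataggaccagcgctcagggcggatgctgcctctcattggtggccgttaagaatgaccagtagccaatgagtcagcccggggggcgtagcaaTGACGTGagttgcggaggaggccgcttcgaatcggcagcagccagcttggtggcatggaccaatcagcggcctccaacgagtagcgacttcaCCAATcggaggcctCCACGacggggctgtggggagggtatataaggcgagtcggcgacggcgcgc
Hsp90b1: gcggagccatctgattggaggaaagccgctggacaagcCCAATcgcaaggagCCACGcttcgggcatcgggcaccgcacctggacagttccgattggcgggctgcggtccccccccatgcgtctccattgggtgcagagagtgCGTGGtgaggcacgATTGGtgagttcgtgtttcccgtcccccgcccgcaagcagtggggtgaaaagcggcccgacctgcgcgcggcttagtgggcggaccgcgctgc
Calr: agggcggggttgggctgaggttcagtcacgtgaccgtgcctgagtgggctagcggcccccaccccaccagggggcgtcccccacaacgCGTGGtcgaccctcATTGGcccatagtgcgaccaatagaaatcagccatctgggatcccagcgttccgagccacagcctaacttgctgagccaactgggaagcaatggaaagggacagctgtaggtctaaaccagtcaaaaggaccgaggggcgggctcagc
Pdia6: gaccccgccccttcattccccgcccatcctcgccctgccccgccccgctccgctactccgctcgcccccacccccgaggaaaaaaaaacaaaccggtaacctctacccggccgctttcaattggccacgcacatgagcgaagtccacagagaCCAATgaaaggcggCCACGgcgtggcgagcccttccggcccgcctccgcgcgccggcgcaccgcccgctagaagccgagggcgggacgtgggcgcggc
Herpud1: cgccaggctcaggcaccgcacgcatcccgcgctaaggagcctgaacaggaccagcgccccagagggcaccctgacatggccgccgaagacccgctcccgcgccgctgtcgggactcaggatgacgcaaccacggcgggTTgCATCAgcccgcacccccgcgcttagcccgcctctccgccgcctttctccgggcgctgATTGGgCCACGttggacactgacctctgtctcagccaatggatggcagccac
Asns: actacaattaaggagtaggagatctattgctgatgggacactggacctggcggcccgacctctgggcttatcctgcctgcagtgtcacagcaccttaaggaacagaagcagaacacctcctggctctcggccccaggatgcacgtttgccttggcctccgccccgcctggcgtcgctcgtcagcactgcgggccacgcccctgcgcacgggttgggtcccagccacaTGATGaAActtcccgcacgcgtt

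**Figure D1:**
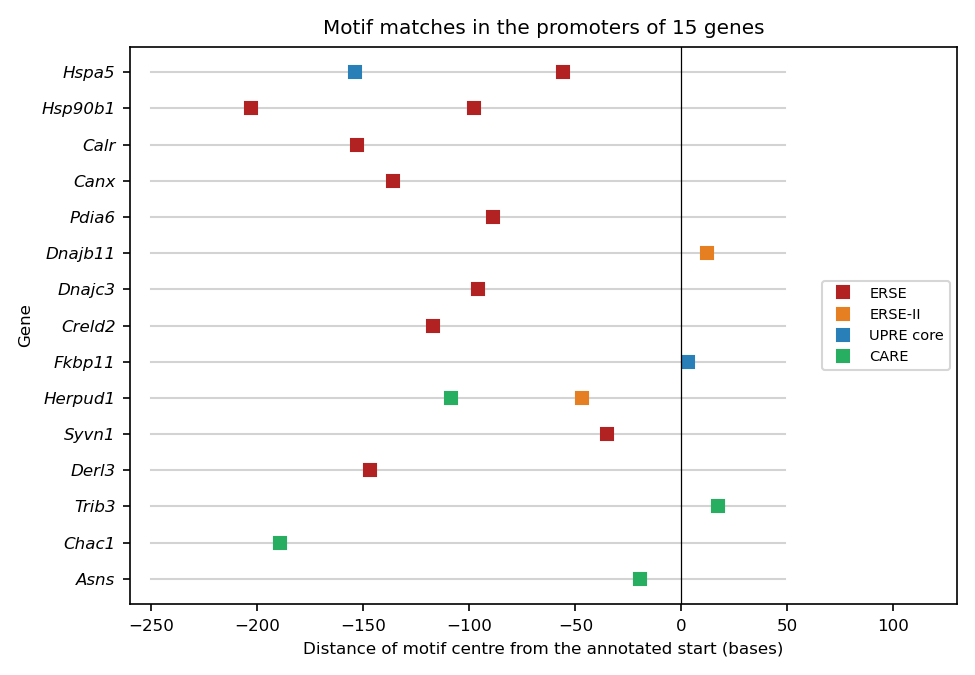
Each grey line is the promoter window of 1 of the 15 genes with a match, from 250 bases before to 50 bases after the annotated start, and each square marks the centre of a motif match by its distance from the start in bases. ERSE stood before the start in all 9 genes that held it, whereas the matches of Dnajb11, Fkbp11 and Trib3 lay after the start.

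Across the classes, the chaperones were highest in alveolar macrophages of the injured library and in fibroblasts and alveolar macrophages of the control library. Their summed level was 5164 CPM in alveolar macrophages of the injured library and 3979 CPM in those of the control library, which was 1.89-fold and 1.81-fold that of all other cells of the same library. In the injured library mesothelial cells (4540 CPM), C1q macrophages (4178 CPM) and proliferating cells (3934 CPM) came next. In the control library fibroblasts stood at 4181 CPM, above alveolar macrophages and type 2 conventional dendritic cells (cDC2, 3816 CPM). The lowest sums of the injured library were those of T cells (805 CPM), B cells (1042 CPM), mature dendritic cells (1046 CPM), neutrophils (1179 CPM) and airway secretory cells (1196 CPM), and in the control library secretory cells (385 CPM), neutrophils (695 CPM) and T cells (1223 CPM) were lowest. Neighbours such as B cells and mature dendritic cells of the injured library differed by less than their counting intervals.

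Hspa5 (BiP), the ER chaperone that also holds the sensors inactive, ranged over the 20 injured classes from 93.3 CPM in T cells through a median of 332 CPM to 768 CPM in alveolar macrophages. Over the 17 control classes it ranged from 22.9 CPM in AT2 cells through a median of 408 CPM to 783 CPM in fibroblasts. Alveolar macrophages held 51.5% of all Hspa5 counts of the injured library and 48.4% of those of the control library. Hsp90b1 (Grp94), an ER chaperone of the HSP90 family, was highest in alveolar macrophages of the injured library (986 CPM, against a class median of 395 CPM) and in ciliated cells of the control library (941 CPM on 56 counts, against a median of 415 CPM). Calr (calreticulin), a chaperone of glycoproteins, reached 893 CPM in alveolar macrophages of the injured library and 739 CPM in cDC2 of the control library, with lowest levels of 48.7 CPM in NK cells and 49.2 CPM in secretory cells.

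**Figure D2:**
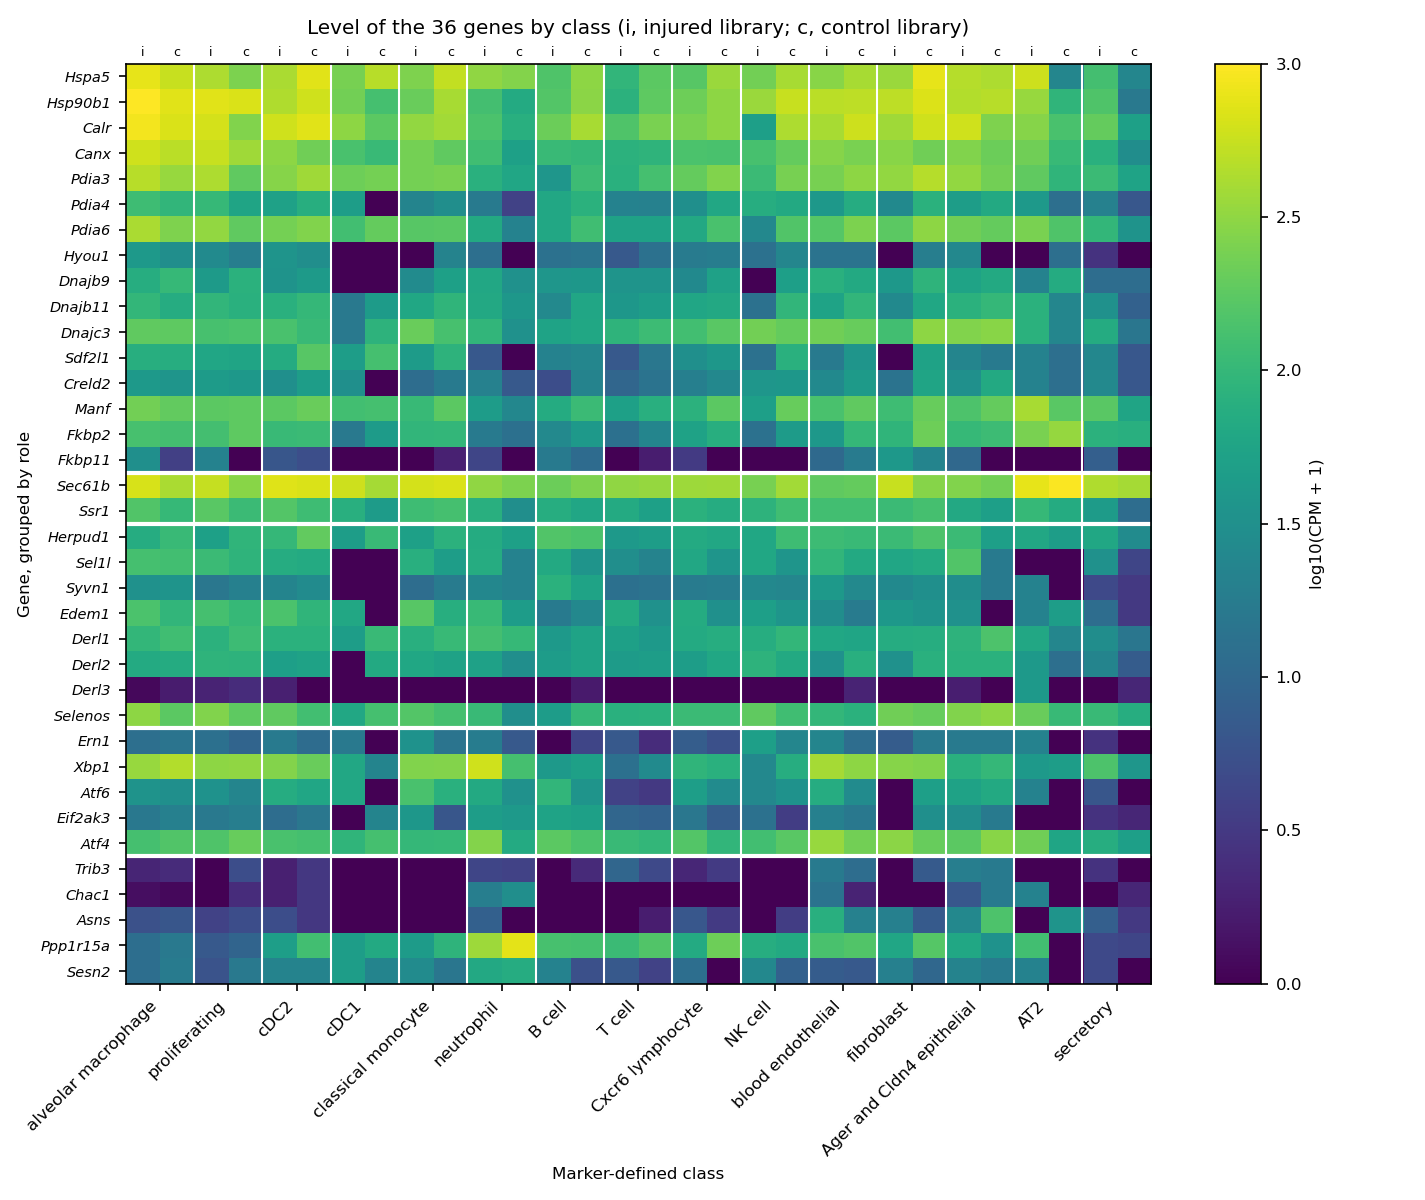
Colour gives log10(CPM + 1) of each of the 36 genes (rows, grouped by role) in the 15 classes that had 15 or more cells per library (columns, i for the injured and c for the control library). The chaperones Hspa5, Hsp90b1 and Calr were bright in alveolar macrophages of both libraries, Ppp1r15a stood out in neutrophils, and Derl3 was near 0 in nearly every class.

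Some of the genes had class patterns of their own. Manf, a secreted ER-resident factor, and Fkbp2, an ER prolyl isomerase, had their highest values in AT2 cells of the injured library (409 CPM on 20 counts and 245 CPM on 12 counts), and Fkbp2 also in those of the control library (332 CPM on 29 counts). The counting intervals of the AT2 values overlapped those of the next class, for Manf plasmacytoid dendritic cells (366 CPM, 271 to 482, beside 250 to 631 in AT2 cells). Sec61b, a subunit of the translocation channel, showed the same place in the control library (961 CPM in AT2 cells), while plasmacytoid dendritic cells (834 CPM) stood above AT2 cells (777 CPM) in the injured library. Selenos, a selenoprotein of ER-associated degradation, was highest in ciliated cells of both libraries, at 391 CPM in injured and 622 CPM in control lung. Syvn1 (Hrd1), the ubiquitin ligase of that pathway, was highest in B cells of both, at 82.0 and 54.1 CPM, and so was Eif2ak3, at 53.3 and 50.3 CPM.

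Counted at 3-fold above all other cells of the same library in both libraries, Eif2ak3 was above in B cells, where 2.87% of all genes met that mark. Asns (asparagine synthetase) was above in blood endothelial cells (background 7.67%), in ciliated cells (7.9%) and in a cluster with the AT1 marker Ager and the transitional marker Cldn4 (5.37%). Ppp1r15a (Gadd34), which restores translation after eIF2α phosphorylation, and Sesn2 (sestrin 2), a stress-induced regulator of growth signalling, were above in neutrophils (3.99%). Ppp1r15a measured 362 CPM in injured and 750 CPM in control neutrophils, which was 9.83-fold and 10.4-fold the other cells. Xbp1 was at least 3-fold below the other cells of both libraries in B (background 7.52%), T (11.2%), NK (2.41%) and Cxcr6-positive lymphocytes (7.58%). In B cells this held only without the 1 antibody-secreting cell of each library described below. With these cells kept among the B cells, Xbp1 was not below there. Xbp1 was also at least 3-fold below in AT2 cells (1.85%) and in type 1 dendritic cells (0.722%), both on few counts. In control type 1 dendritic cells it had 1 count (21.6 CPM, 0.546 to 120). In AT2 cells it had too few counts for a comparison of the libraries. Of 33 genes tested, 9 were below in neutrophils (9.62%) and 8 in T cells (11.2%). In secretory cells 17 of the 33 were at least 3-fold below the other cells, where 36.8% of all genes were. A single gene, Scgb1a1, gave 44.7% of the UMIs of injured and 58.1% of those of control secretory cells.

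The levels of the chaperones went up and down together over clusters. As a description over the 20 injured and 15 control clusters with enough cells and UMIs, which share their library and differ in depth, the Spearman correlation with the sum of the other chaperones was 0.95 and 0.94 for Pdia6, a disulfide isomerase, 0.95 and 0.87 for Hsp90b1, and 0.86 and 0.70 for Hspa5. The weakest chaperones were Dnajb9 over injured clusters (0.44) and Dnajb11 over control clusters (0.55). Some genes of other roles followed too, such as Selenos (0.84 and 0.68) and Ssr1 (0.60 and 0.77). Sec61b followed less closely (0.32 and 0.02), and Ppp1r15a had -0.55 and -0.09. The libraries differed for Atf4, at -0.02 over injured and 0.77 over control clusters, and for Herpud1, at 0.09 and 0.72. Genes with ERSE or ERSE-II had a median correlation of 0.76 and 0.73 (11 genes), and the 21 genes with a promoter entry and neither motif had 0.44 and 0.67. Of the 11 genes, 8 are themselves chaperones, so motif and role cannot be told apart in these medians. Over injured clusters Syvn1, with ERSE, had 0.48, and the chaperone Pdia3, with neither motif, had 0.93.

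Taken over whole libraries, most of the genes were slightly higher in the injured library. Of 35 genes with at least 50 counts, 27 had a ratio above 1, with a median log2 ratio of 0.32, beside 0.08 over all genes tested. At 1.5-fold, 4 were higher, where 19.3% of all genes tested were, and 1 was lower, where 14% were, so the calls among these genes were no more frequent than among genes at large. The sum of all 36 was 5517 CPM in injured and 4466 CPM in control lung, a ratio of 1.24 (1.22 to 1.25). With every cell weighted the same, the median log2 ratio of the 35 genes was 0.21. For the chaperone sum, the median over single cells ran the other way, at 1703 CPM in injured and 1939 CPM in control lung.

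Among the chaperones, Fkbp11, a prolyl isomerase known from secretory cells, measured 18.04 CPM in injured and 4.13 CPM in control lung (358 and 66 counts), a ratio of 4.37 (3.36 to 5.78). Alveolar macrophages held 56.1% of its injured counts and 24.2% of its control counts, and a single antibody-secreting cell held a further 11.2% of the injured counts. Hspa5 measured 506 and 427 CPM (1.19-fold, 1.15 to 1.22), Hsp90b1 measured 627 and 504 CPM (1.24-fold, 1.21 to 1.28), and Calr measured 623 and 484 CPM (1.29-fold, 1.25 to 1.33). Each of these was higher beyond counting error and under the 1.5-fold mark. With every cell weighted the same the log2 ratio was 0.12 for Hspa5 and 0.16 for Hsp90b1, and that of Calr turned to -0.07. The J-domain cochaperone Dnajb9 was the chaperone with the lowest ratio, 55.1 CPM in injured and 66.6 CPM in control lung (0.827, 0.759 to 0.900).

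In ER-associated degradation, Edem1, which hands misfolded glycoproteins to the degradation machinery, measured 116 CPM in injured and 62.9 CPM in control lung (1.85-fold, 1.71 to 1.99). Selenos measured 225 and 135 CPM (1.66-fold, 1.58 to 1.75). Herpud1, a membrane scaffold of the same machinery, ran the other way at 83.3 and 100.2 CPM (0.831, 0.775 to 0.891). Derl3 was listed with 17 and 12 counts and was not tested, and the remaining genes of this group lay between 0.936 for Derl1 and 1.35 for Sel1l.

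None of the sensors and transcription factors passed 1.5-fold as summed libraries, and 3 did so with every cell weighted the same. Xbp1 measured 282 CPM in injured and 269 CPM in control lung (1.05, 1.01 to 1.09), and Atf4 measured 150 and 141 CPM (1.06, 1.01 to 1.12). Atf6 was further apart at 45.2 and 31.8 CPM (1.42, 1.27 to 1.59), below the 1.5-fold mark. With cells weighted the same, the log2 ratios were 0.66 for Xbp1, 0.76 for Atf6 and 0.79 for Ern1. Of the Atf4 targets, Ppp1r15a measured 56.8 and 86.4 CPM (0.658, 0.607 to 0.712), the one lower call. This call was lost with cells weighted the same, where the log2 ratio of Ppp1r15a was -0.03 and Fkbp2 was the one gene called lower (-0.63, beside 0.14 in the summed libraries). Chac1, a glutathione-degrading enzyme, passed the size mark on 39 and 19 counts (1.66, 0.934 to 3.03), and its interval included 1.

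**Figure D3:**
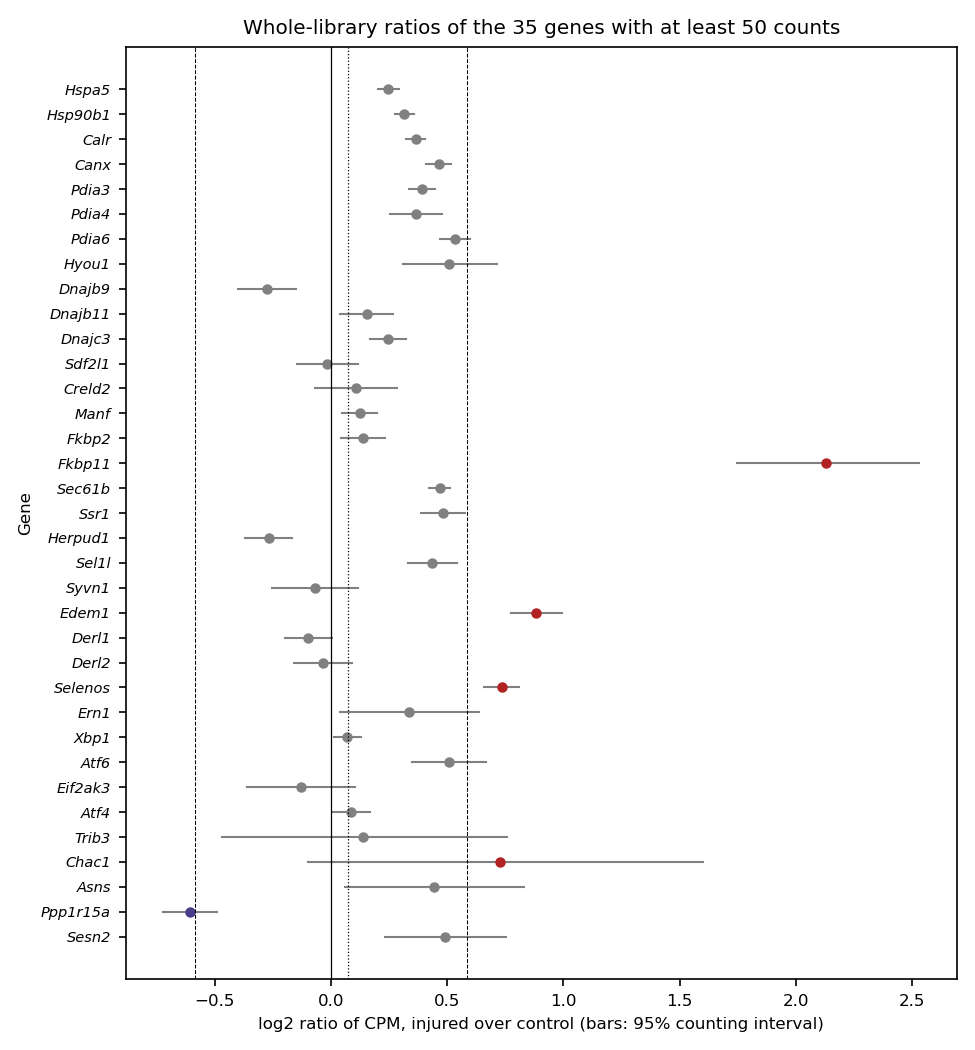
Points give the log2 ratio of CPM, injured over control, for the 35 genes with at least 50 counts, and bars give the 95% counting interval. Red and dark blue mark the genes past 1.5-fold (dashed lines), namely Fkbp11, Edem1, Selenos and Chac1 higher and Ppp1r15a lower, and the dotted line is the median of all genes at 0.08.

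Whole-library sums follow the make-up of the libraries: alveolar macrophages gave 33.9% of the injured and 36.8% of the control UMIs, and 25.5% of injured but 5.44% of control cells were neutrophils. The genes were therefore compared within the 15 classes that had at least 15 cells in each library. Over these classes 374 pairs of gene and class had at least 20 counts. In 88 of them the gene was higher in the injured library (23.5%, beside 25.1% of all such pairs of any gene), and in 78 it was lower (20.9%, beside 17.9%). The interval excluded 1 in 59 and 50 of these. The genes as a body were thus called about as often as other genes, and the following paragraphs turn on which classes and roles the calls fell in.

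**Figure D4:**
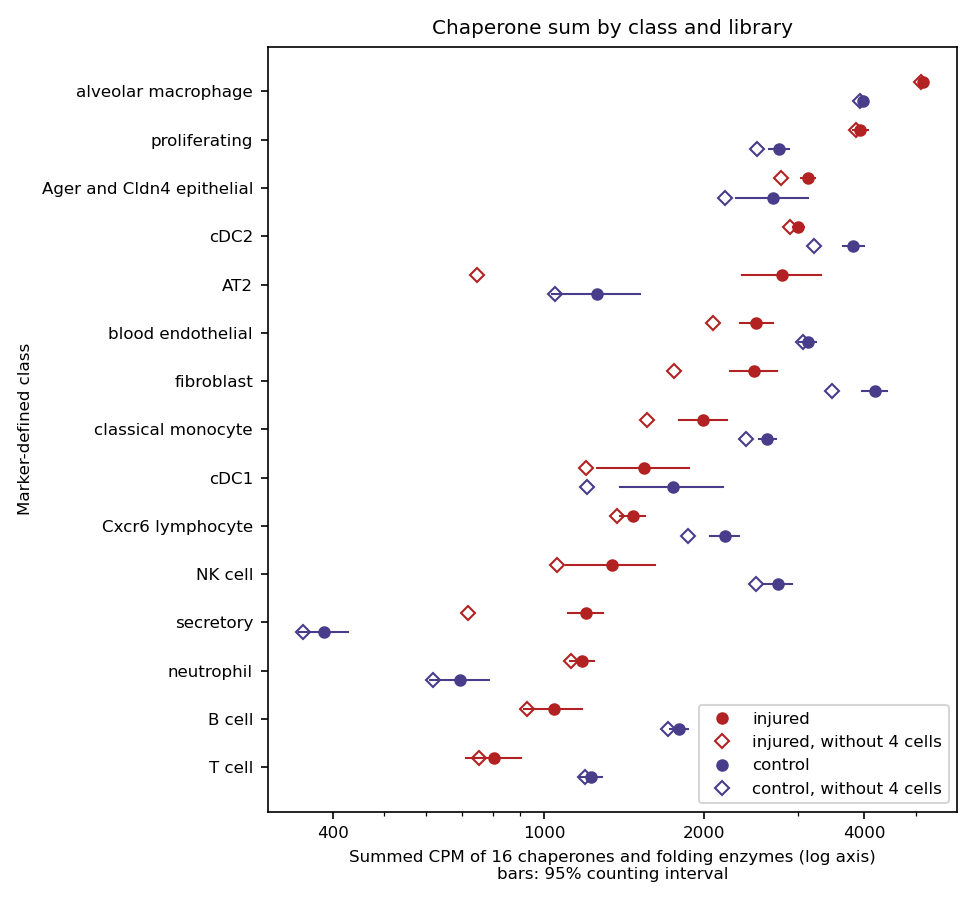
Filled circles give the summed CPM of the 16 chaperones and folding enzymes in each class (red, injured library; dark blue, control library; log axis), bars give the 95% counting interval, and open diamonds give the level after leaving out the 4 cells with most chaperone UMIs. Injured alveolar macrophages lay above control ones, and NK, T and B cells (without antibody-secreting cells) and fibroblasts lay below. The injured AT2 sum passed below the control sum once 4 cells were left out.

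In alveolar macrophages the summed levels of the chaperones and of the translocation genes were moderately higher in the injured library. The injured alveolar macrophages made up cluster 3 (324 cells) and the control ones cluster 4 (303 cells), so that cluster and library could not be told apart. Their median mitochondrial share was 7.09% in injured and 4.53% in control cells, and its part in the values was not tested. Of 33 genes tested, 5 were higher (background 13.6%) and none was lower (background 20.2%), and the chaperone sum was 1.30-fold (1.28 to 1.32), also without the 4 cells with most chaperone UMIs (1.30). Fkbp11 measured 29.9 CPM in injured and 2.72 CPM in control alveolar macrophages (201 and 16 counts), a ratio of 11.0 (6.61 to 19.6). The other calls were Selenos (308 and 173 CPM, 1.78-fold), Pdia6 (417 and 259 CPM, 1.61-fold), Sec61b (660 and 414 CPM, 1.59-fold) and Ssr1, a subunit of the translocon-associated complex (153 and 102 CPM, 1.5-fold). Hspa5 at 768 and 560 CPM (1.37-fold) and Hsp90b1 at 986 and 734 CPM (1.34-fold) stayed below the mark. Xbp1 ran the other way, at 339 CPM in injured and 454 CPM in control alveolar macrophages (0.747-fold), as did Herpud1 (71.9 and 106 CPM, 0.676-fold) and Dnajb9 (73.4 and 102 CPM, 0.719-fold), none past the mark. By role, the chaperone and translocation sums were above 1 (1.30 and 1.58) and the sums of the sensors and of the Atf4 targets below it (0.792 and 0.729).

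In proliferating cells, 41 injured and 32 control, Pdia6, Fkbp11, Sec61b, Ssr1 and Selenos were called higher as they were in alveolar macrophages, and Hspa5, Calr, Pdia3 and Pdia4 were called higher as well. Of 29 tested, 9 were higher (background 15.7%) and 2 lower (background 23.3%). This class was named by cell-cycle markers alone and may hold several lineages, and the part of their shares in these values was not tested. Calr measured 638 CPM in injured and 272 CPM in control proliferating cells (2.35-fold, 2.0 to 2.77), and Pdia3, a disulfide isomerase that works with calreticulin, measured 428 and 187 CPM (2.29-fold, 1.89 to 2.80). Hspa5 measured 429 and 258 CPM (1.66-fold, 1.40 to 1.99). Fkbp11 had 21 counts in the injured and 0 in the control proliferating cells, and Dnajb9 (42.7 and 82.2 CPM, 0.520-fold) and Herpud1 (49.5 and 90.5 CPM, 0.547-fold) were the 2 lower ones.

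In lymphocytes and NK cells the chaperones were lower in the injured library. The chaperone sum was 1042 CPM in injured and 1793 CPM in control B cells (0.581-fold), 805 and 1223 CPM in T cells (0.658-fold), 1466 and 2185 CPM in Cxcr6-positive lymphocytes (0.671-fold), and 1339 and 2751 CPM in NK cells (0.487-fold). Leaving out the 4 cells with most chaperone UMIs left each below 1, between 0.422 in NK cells and 0.736 in Cxcr6-positive lymphocytes. The B cell values leave out 1 antibody-secreting cell per library, and with these cells kept the B cell sum was 1.30-fold. In B cells (57 injured and 319 control) 10 of 30 genes tested were lower (background 17.7%) and 4 higher (background 25.1%). In T cells (67 and 226) 8 of 26 were lower (background 12.9%) and 1 higher (28.2%). In Cxcr6-positive lymphocytes (149 and 75) 6 of 28 were lower (8.97%) and 4 higher (29.7%), and in NK cells (19 and 90) 11 of 20 were lower (24.5%) and 1 higher (21.7%).

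The values of single chaperones showed this. Hspa5 measured 148 CPM in injured and 305 CPM in control B cells (0.484-fold, 0.335 to 0.680). In T cells it measured 93.3 and 173 CPM (0.540-fold, 0.361 to 0.783), and in Cxcr6-positive lymphocytes 167 and 353 CPM (0.473-fold, 0.376 to 0.595). Calr had 4 counts in the 19 injured NK cells and 166 counts in the 90 control ones, 48.7 and 422 CPM (0.115-fold, 0.0311 to 0.301). Manf, at 49.6 and 76.7 CPM in T cells, 83.1 and 176 CPM in Cxcr6-positive lymphocytes and 48.7 and 198 CPM in NK cells, was lower in all of these. Median UMIs per cell were also lower in the injured library, at 3375 and 4483 in B cells, 4727 and 5996 in T cells, 3935 and 4251 in NK cells and 5030 and 5461 in Cxcr6-positive lymphocytes. The airway transcript Scgb1a1, a sign of free RNA in cells that do not make it, measured 505 CPM in injured and 4344 CPM in control T cells, and 1443 and 2056 CPM in B cells. The part of depth and free RNA in these differences was not tested.

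In fibroblasts, blood endothelial cells, cDC2 and classical monocytes the chaperone sum was also lower in the injured library. In fibroblasts (39 injured and 80 control cells) 12 of 23 genes were lower (background 30.8%) and 2 higher (background 21.4%). Hspa5 measured 349 CPM in injured and 783 CPM in control fibroblasts (0.446-fold, 0.326 to 0.599), and Dnajc3 (p58IPK), a cochaperone that restrains PERK, measured 123 and 305 CPM (0.403-fold, 0.233 to 0.662). Sec61b stood apart at 556 and 283 CPM (1.96-fold, 1.45 to 2.66). The 4 injured fibroblasts with most chaperone UMIs held 72.4% of all chaperone UMIs of the 39 cells, and without 4 cells of each library the chaperone sum was 0.505-fold, beside 0.593-fold with them. Median UMIs were 1061 in injured and 1584 in control fibroblasts, the median mitochondrial share was 4.60% and 6.41%, and 64.1% and 86.3% of the cells had at least 1% mitochondrial UMIs. The part of these in the difference was not tested.

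In blood endothelial cells (92 injured and 392 control) 8 of 30 genes were lower (background 19.1%) and 4 higher (20.1%). Fkbp2 measured 38.3 CPM in injured and 97.3 CPM in control endothelial cells (0.393-fold, 0.196 to 0.718) and Derl2, a component of the retrotranslocation machinery, 31.9 and 76.5 CPM (0.417-fold, 0.192 to 0.809). Asns measured 76.5 CPM and 19.9 CPM on 24 and 20 counts (3.85-fold, 2.04 to 7.36). In cDC2 (131 and 37 cells) 5 of 31 genes were lower (13.4%) and 3 higher (30.6%), with Hspa5 at 415 and 735 CPM (0.565-fold, 0.50 to 0.640) and Sdf2l1, a BiP cofactor, at 69.2 and 165 CPM (0.418-fold, 0.318 to 0.554). In classical monocytes (17 and 103 cells) 9 of 30 were lower (22.2%) and 6 higher (20%), with Hspa5 at 262 and 530 CPM (0.494-fold, 0.360 to 0.663). In type 1 dendritic cells (42 and 32 cells, 5 genes tested) 3 were higher (17.7%) and 1 lower (18.2%), and each of these intervals included 1.

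A few genes of other roles were higher in the injured library in several classes, among them classes whose chaperone sum was lower. Over all genes and classes 25.1% of the pairs tested were higher and 17.9% were lower. In neutrophils, which count among the higher classes of Edem1, Atf6 and Sel1l alike, 52.6% of all genes were higher. Edem1 was higher in 6 of the 10 classes where it was tested and lower in none. It measured 69.8 CPM in injured and 31.1 CPM in control Cxcr6-positive lymphocytes (2.24-fold, 1.24 to 4.34), 67.1 and 32.3 CPM in T cells (2.08-fold, 1.20 to 3.51), and 164 and 75.9 CPM in classical monocytes (2.15-fold, 1.37 to 3.30). Atf6 was higher in 5 of 9 classes and lower in none, with 94.3 CPM in injured and 34.4 CPM in control B cells (2.74-fold, 1.61 to 4.55) and 70.2 and 26.8 CPM in endothelial cells (2.62-fold, 1.42 to 4.77). Sel1l, the adaptor of the Hrd1 ligase, was higher in 6 of 12 and lower in none, and its ratio was above 1 in 11 of the 12. Its higher classes were B cells, Cxcr6-positive lymphocytes and classical monocytes, and also neutrophils, secretory cells and the Ager and Cldn4 cluster, where the chaperone sum was not lower. Hspa5 by contrast was higher in 3 and lower in 8 of 15 classes, Manf higher in 3 and lower in 6 of 14, and Sdf2l1 lower in 5 of 10 and higher in none. The classes share the same 2 libraries, so these counts over classes are not independent.

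Ppp1r15a was lower in 5 of 11 classes and higher in 1. The counts over classes in this paragraph stand beside 17.9% lower and 25.1% higher over all pairs of any gene and class. It measured 67.6 CPM in injured and 216 CPM in control Cxcr6-positive lymphocytes (0.314-fold, 0.224 to 0.436), 46.7 and 121 CPM in cDC2 (0.384-fold, 0.278 to 0.537), and 58.2 and 162 CPM in fibroblasts (0.360-fold, 0.156 to 0.736). The single higher class was the Ager and Cldn4 cluster, on 77 and 2 counts. Canx (calnexin), the membrane-bound partner of calreticulin, was higher in 3 and lower in none of 14 classes, with a ratio above 1 in 12 of them, and Hyou1, a large ER chaperone, was called in neither direction in any of 7.

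**Figure D5:**
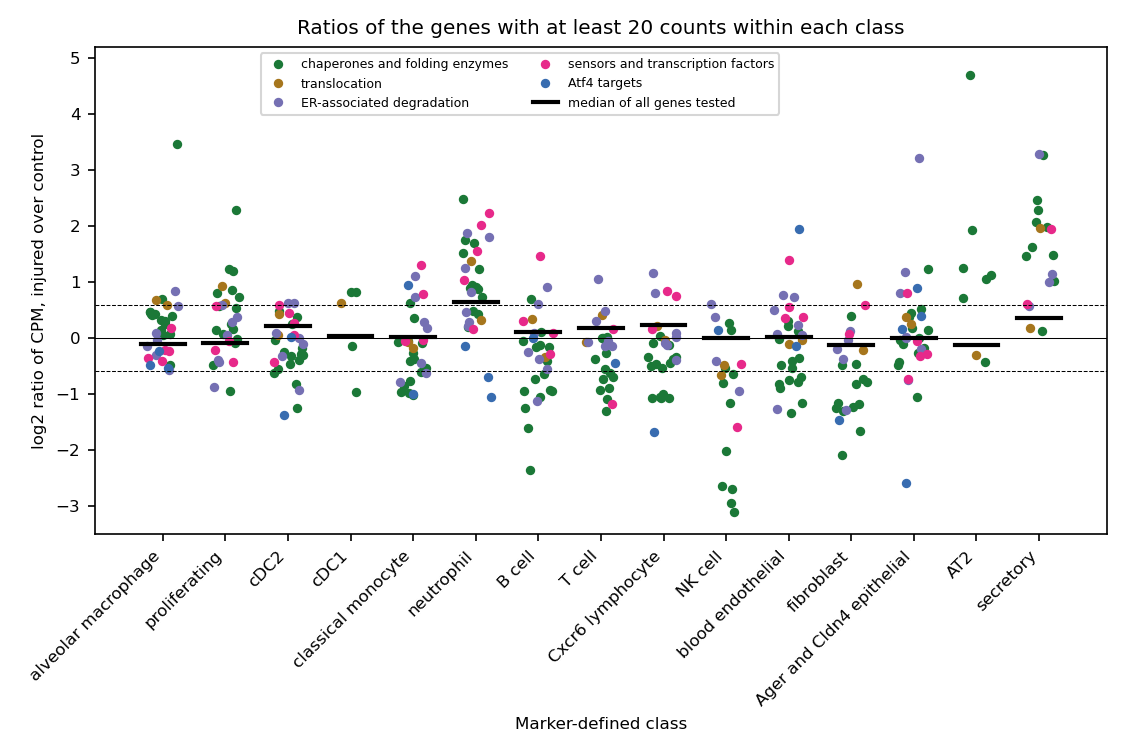
Each point is 1 gene with at least 20 counts in a class, placed by its log2 ratio of CPM (injured over control) and coloured by role. Dashed lines mark 1.5-fold and black bars the median of all genes tested in the class, which was 0.64 in neutrophils, 0.36 in secretory cells and between -0.13 and 0.23 in the other classes.

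In neutrophils most of the genes were higher in the injured library, 2 of the 3 Atf4 targets tested were lower, and genes at large had moved as well. Of 30 genes tested 19 were higher and 2 lower, where 52.6% and 9.63% of all genes were, and the median log2 ratio of all genes was 0.64. Xbp1 measured 606 CPM in injured and 129 CPM in control neutrophils (4.70-fold, 3.47 to 6.52), Atf4 measured 273 and 67.4 CPM (4.05-fold, 2.66 to 6.48), and Ppp1r15a measured 362 and 750 CPM (0.482-fold, 0.412 to 0.564). The other lower gene was Chac1, with a log2 ratio of -0.70 on 22 and 10 counts and an interval that included 1. Neutrophils held 56.4% of the injured and 52.6% of the control Chac1 counts of the whole libraries. The libraries drew their neutrophils from different clusters, since cluster 0 held 425 of the 587 injured and 7 of the 125 control cells, and cluster 7 held the other 162 and 118. Within cluster 7, where 6 of 22 genes were higher (background 24.4%) and 1 lower (14.9%), Xbp1 measured 152 and 133 CPM (1.14-fold) and Ppp1r15a 661 and 763 CPM (0.866-fold), so neither passed the mark there. Atf4 measured 231 and 69.6 CPM within cluster 7 (3.32-fold, 2.07 to 5.56) and remained past it. The injured cells of cluster 0 had 818 CPM of Xbp1 and 222 CPM of Ppp1r15a. The median mitochondrial share was 1.77% in injured and 0.643% in control neutrophils, and its part in these values was not tested.

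In the airway secretory cells nearly all tested genes were higher in the injured library, and 4 cells held most of the injured chaperone UMIs. Of 18 genes tested 15 were higher (background 40.8%) and none lower (background 10.4%), with a median log2 ratio of 1.55 beside 0.36 over all genes. Hspa5 measured 127 CPM in injured and 23.0 CPM in control secretory cells (5.52-fold, 3.35 to 9.46), Hsp90b1 measured 148 and 15.3 CPM (9.68-fold, 5.46 to 18.5), and Xbp1 measured 143 and 37.2 CPM (3.84-fold, 2.54 to 5.92). Sec61b at 443 and 394 CPM, Fkbp2 at 83.9 and 76.5 CPM and Selenos at 107 and 72.2 CPM were not called. Of the 670 chaperone UMIs of the 80 injured secretory cells, 4 cells held 64.8%, whereas 4 of 118 control cells held 22.4% of 352. Without these cells the chaperone sum was 720 CPM in injured and 351 CPM in control secretory cells, a ratio of 2.05 (1.71 to 2.45) instead of 3.11 (2.73 to 3.55). The median over single cells was 548 CPM in injured and 333 CPM in control secretory cells. Median UMIs per cell were 2359 and 4978.5, the share of Scgb1a1 was 44.7% and 58.1%, and 42.5% of injured and 13.6% of control secretory cells had at least 1% mitochondrial UMIs. The part of these in the ratio was not tested.

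In AT2 cells, which carry the mutant protein, the difference in the summed chaperone level rested largely on 4 cells. There were 19 injured and 63 control AT2 cells, with medians of 1205 and 1225 UMIs, and the defining transcript Sftpc made up 2.87% and 2.24% of their UMIs. Other transcripts of the class differed: Scgb1a1 made up 6.20% and 0.495%, and the AT2 and macrophage transcript Lyz2 0.178% and 4.18%. Of 8 genes tested 6 were higher (background 24.2%) and none lower (background 25%), and in 3 of the 6 the interval excluded 1. A gene was tested on its counts summed over both libraries, so high injured counts alone could admit it. The median log2 ratio of the tested genes was 1.09, and 0.33 with every cell weighted the same. The chaperone sum was 2800 CPM in injured and 1259 CPM in control AT2 cells (2.22-fold, 1.72 to 2.89). Hspa5 had 29 counts in the injured and 2 in the control AT2 cells, and 2 cells of each library held all of these. The 4 injured cells with most chaperone UMIs held 86.1% of the 137 chaperone UMIs, and without 4 cells of each library the sums were 748 and 1048 CPM, a ratio of 0.713 (0.409 to 1.19). This step left out 4 of 19 injured but 4 of 63 control cells, picked by their chaperone UMIs, and so took a larger share of the injured cells. The median over single cells was 1087 CPM in injured and 969 CPM in control AT2 cells. Sec61b at 777 and 961 CPM and Fkbp2 at 245 and 332 CPM were not called. Ern1, Xbp1, Atf6, Eif2ak3, Atf4 and the Atf4 targets had too few counts in this class for a comparison.

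The cluster marked by Ager and Cldn4 held 82 injured cells with a median of 13677.5 UMIs and 20 control cells with a median of 994.5 UMIs. Ager made up 0.455% and 1.20% of its UMIs, and Cldn4 was found with 824 counts in the injured and 5 in the control cells. Its best list match was AT2 with 9 markers, followed by AT1 with 8. Sftpc differed between the libraries in this cluster, with 5497 injured counts (0.431% of UMIs) and 7 control counts (0.0114%). In the AT2 class Sftpc made up 2.87% and 2.24%. The part of this make-up in the values below was not tested. Of 33 genes tested 6 were higher (background 22.4%) and 4 lower (background 21.8%). Calr measured 608 CPM in injured and 260 CPM in control cells (2.34-fold, 1.43 to 4.12), and Asns measured 24.3 and 146 CPM on 31 and 9 counts (0.167-fold, 0.0775 to 0.398). Sel1l was 9.29-fold on 192 counts against 1 count, with an interval of 1.65 to 369. The chaperone sum was 1.16-fold (0.996 to 1.37).

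Antibody-secreting cells were identified by at least 5 of 9 core markers and at least 20% immunoglobulin UMIs, a limit set after the values were seen. Each library held 1 such cell, with 39211 UMIs (38.4% immunoglobulin) in the injured and 29985 UMIs (46.6%) in the control library, and no other cell exceeded 5.54%. Both lay in the B cell cluster, and they were left out of the B cell values above. Xbp1, which plasma cells need, measured 2678 CPM in the injured cell and 900 CPM in the control antibody-secreting cell, 65.3-fold and 17.9-fold the B cells of the same library. Hsp90b1 measured 1658 and 1501 CPM (10.6-fold and 5.03-fold), and Edem1 measured 1097 and 300 CPM (66.9-fold and 12.4-fold). Fkbp11 had 40 counts in the injured and 2 in the control cell, and Fkbp2 measured 2117 and 133 CPM. Derl3, near 0 elsewhere, had 6 and 3 counts here out of the 17 and 12 of the whole libraries. The Atf4 targets Ppp1r15a, Trib3, Chac1, Asns and Sesn2 had 0 counts in both cells.

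These 2 cells decided the B cell comparison. The injured cell held 91.3% of the Xbp1, 91.5% of the Edem1 and 93.3% of the Fkbp2 counts of all injured cells of its cluster. With the antibody-secreting cells kept among the B cells, 11 of 30 genes were higher (background 20.9%) and 1 lower (19.7%), and the chaperone sum was 1.30-fold instead of 0.581-fold. In the whole libraries 4 genes were still called higher and 1 lower without these cells.

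Further genes of the pathway were compared over whole libraries with the same backgrounds of 19.3% higher and 14% lower. They were listed by known function, with earlier results of these data known. Of 21 other folding and glycosylation genes 6 were higher and 1 lower, with Rpn1, a subunit of the oligosaccharyl transferase, at 240 CPM in injured and 99.1 CPM in control lung (2.43-fold, 2.29 to 2.57) and P4hb (Pdia1) at 265 and 112 CPM (2.37-fold, 2.25 to 2.50). Mzb1, an ER chaperone partner of B-lineage cells, was lower at 14.6 and 49.6 CPM (0.295-fold, 0.257 to 0.338), and the injured library had 57 and the control library 319 B cells. Of 15 other translocation genes 3 were higher and none lower, led by Ssr3 (171 and 101 CPM, 1.69-fold) and Sec61a1 (108 and 69.3 CPM, 1.56-fold). Of 13 other degradation genes 3 were higher and none lower, led by Get4 (42.9 and 19.9 CPM, 2.15-fold) and the segregase Vcp (352 and 202 CPM, 1.75-fold).

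Of 12 other sensors and transcription factors 1 was higher, Rtcb, the ligase that joins spliced Xbp1 (99.8 and 65.9 CPM, 1.51-fold), and none was lower. Of 18 other Atf4 and stress targets 3 were higher and 4 lower. Psat1, of serine synthesis, measured 21.0 and 9.88 CPM (2.13-fold, 1.77 to 2.57), and the amino acid transporter Slc7a5 31.9 and 17.2 CPM (1.86-fold, 1.61 to 2.15). Phgdh, the first enzyme of the same serine pathway, measured 35.1 CPM in injured and 104 CPM in control lung (0.338-fold, 0.309 to 0.369), and the stress-induced transcription factor Atf3 measured 72.5 and 138 CPM (0.526-fold, 0.491 to 0.562). Ddit3 (CHOP) stood on 2 gene IDs and was kept out of the counts, with 14.5 and 24.7 CPM on the ID that had counts. Genes of this role thus lay on both sides. Of the members, Ppp1r15a was lower, and Chac1 was called higher with an interval that included 1.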

How the data were processed

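The deposited values were raw UMI counts for each gene in each barcode, and the file headers name Cell Ranger 4.0.0. The submitters' processing notes name DESeq2 (versions 1.26.0 and 1.28.1), featureCounts 1.6.3, STAR 2.7.2c and the builds GRCm38 and mm10, without saying what each did for these libraries. Barcodes needed at least 500 UMIs, 200 genes and at most 15% mitochondrial UMIs, and the highest-scoring predicted doublets (44 and 44) were removed, leaving 19839389 injured and 15997862 control UMIs.

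Cells were clustered with Leiden (leidenalg 0.10.2, resolution 1, seed 1, 30 principal components of 2000 variable genes). A list name required at least 3 markers 3-fold above the other cells. Counts were summed per class and library. CPM carry exact Poisson and ratios exact conditional binomial 95% intervals (scipy 1.17.1). Levels are given for classes with at least 10 cells. The ratio of a gene at 0 was bounded at 3 counts. The calls and intervals were tested on simulated data with independent Poisson counts. That simulation held no counts concentrated in a few cells, so it cannot show how the intervals behave there.

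The 36 genes and all lists were chosen with earlier results of these data known. Genes were named by role, highest level and size of difference. The map of levels shows every class, and the text gives lowest, median, highest and called values. The limit for antibody-secreting cells and leaving out 4 cells were chosen after the data were seen.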

Additional observations from a re-analysis of the deposited data

Results flagged for a closer look

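The chaperone sum stood on opposite sides of 1 in different classes, with counting intervals that excluded 1 on both sides. Injured over control it was 3.11 in airway secretory cells, 2.22 in AT2 cells and 1.70 in neutrophils. The AT2 ratio rested on few cells, since it was 0.713 (0.409 to 1.19) without the 4 cells of each library with most chaperone UMIs, and that of secretory cells was 2.05 without them. The libraries drew their neutrophils from different clusters, the median of all genes in neutrophils was 1.56-fold, and within cluster 7 the sum was 1.24-fold (1.04 to 1.48). The chaperone sum was 0.487 in NK cells, 0.581 in B cells, 0.593 in fibroblasts and 0.658 in T cells. The B cell ratio turned to 1.30 with the 1 antibody-secreting cell of each library kept among the B cells. With 1 library per group the difference between classes was not tested.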

How the results depend on the processing

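No paired analysis was possible because each group had 1 library. In the whole libraries 9 genes were higher with every cell weighted the same and 1 at a 2-fold threshold, and 0 were lower at 2-fold or with at most 10% mitochondrial UMIs. Over the classes 46 pairs were higher and 40 lower at 2-fold, and 37 were lower with each library clustered alone, where 9 classes could be compared. The log2 ratio of the chaperone sum turned to 0.38 in B cells, and that of Hsp90b1 to 0.18, with the antibody-secreting cells kept, and the AT2 sum turned to -0.49 without 4 cells. The chaperone sum of alveolar macrophages over other cells was 2.63 in the injured library with cells weighted the same, 2.02 without the 20 most abundant genes, 1.81 at resolution 2 and 1.80 with libraries clustered alone, and 1.76 in the control library without the 20 genes. That of secretory cells was 0.689 (injured) and 0.328 (control) without the 20 genes, 0.364 and 0.194 clustered alone, and 0.173 in the control library with cells weighted the same. The cause of these shifts was not tested. The ratio of the chaperone sum kept its side of 1 under every alternative run in alveolar macrophages (1.29 to 1.40), proliferating cells (1.34 to 1.60), secretory cells (1.97 to 3.29), neutrophils (1.18 to 1.82), NK cells (0.422 to 0.522), T cells (0.604 to 0.778), Cxcr6-positive lymphocytes (0.603 to 0.736), fibroblasts (0.505 to 0.671), endothelial cells (0.677 to 0.802), classical monocytes (0.649 to 0.767) and cDC2 (0.690 to 0.95). In the Ager and Cldn4 cluster it ran from 0.896 to 1.69. Depth limited the comparison in type 1 dendritic cells (5 genes tested), AT2 cells (8) and secretory cells (18), and for genes such as Derl3, Chac1 and Trib3.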

Other observations

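One cluster of 134 injured and 146 control cells met no marker list and stayed unnamed, with medians of 931.5 and 995.5 UMIs per cell. Of 21 of the 36 genes tested there 14 were lower in the injured library (29.2% of all genes tested) and none was higher (16.4%). Hsp90b1 measured 121 CPM in injured and 436 CPM in control cells of this cluster (0.277-fold, 0.169 to 0.435), Pdia6 measured 36.7 and 200 CPM (0.184-fold, 0.0706 to 0.405) and Xbp1 measured 68.2 and 294 CPM (0.232-fold, 0.118 to 0.419).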
